A study of Mus musculus with 6 samples.

Results

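Vasoactive peptides act on smooth muscle of the arterial wall through receptors that either raise calcium and contract the cell or raise cyclic GMP (cGMP) and relax it. The 10 genes described here hold parts of both arms, and they were selected by symbol from 18112 genes measured in mouse aortic vascular smooth muscle cells (VSMCs). They are the endothelin-1 gene *Edn1*, the angiotensin II receptor genes *Agtr1a* and *Agtr2*, the endothelin receptor genes *Ednra* and *Ednrb*, the natriuretic peptide receptor genes *Npr1*, *Npr2* and *Npr3*, the cGMP-dependent protein kinase gene *Prkg1* and the phosphodiesterase gene *Pde5a*. Angiotensin II and endothelin-1 contract vessels mainly through the G protein-coupled receptors encoded by *Agtr1a* and *Ednra*. Natriuretic peptides bind the products of *Npr1* and *Npr2*, which are guanylyl cyclases, whereas the product of *Npr3* clears the peptides. The cGMP made by these cyclases, or by the nitric oxide-sensitive cyclase, activates the kinase encoded by *Prkg1* and is degraded by the product of *Pde5a*.

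Cells were grown from the aortic media, after removal of endothelium and adventitia, of mice with or without a smooth muscle deletion of *Smyd2*, which encodes a lysine methyltransferase, and the comparison asks how its loss changes RNA levels. There were 3 libraries of *Smyd2* fl/fl cells (labelled SMYD2 Flox, here the controls) and 3 of *Smyd2* SMC-/- cells (labelled SMYD2 KO, here the knockouts), all of strain C57BL/6 and, by the methods of the study, from mice aged 8 to 10 weeks. Both genotypes are homozygous for the floxed allele, the controls being littermates, and the knockouts add a Cre transgene driven by the *Tagln* (SM22α) promoter, which has also been found active in cell types other than smooth muscle. No agent was given to either group. The methods and the labels differ on the culture, with passage 4 and overnight starvation in the former and passage 6 and serum in the latter. The methods describe the study's data as coming from independent experiments, but do not state for these libraries whether replicates of a genotype came from separate animals or cultures, so the p-values measure the spread between these libraries only.

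RNA levels were given as FPKM, a measure in which fragments per gene are scaled to transcript length and to what the library mapped in total, so that levels can be compared between genes. The libraries held an estimated 17750000 to 20450000 fragments, and a single fragment on a transcript of 2000 bases was then worth 0.0257 to 0.0297 FPKM. Groups were compared with limma on log2(FPKM + 1), a scale that understates the change of low genes. The test took in 12565 genes whose mean reached 0.5 FPKM, and a gene was called at a Benjamini-Hochberg adjusted p under 0.05. *Smyd2* itself measured 7.87, 3.1 and 3.0 FPKM in control libraries 1 to 3, against 1.67, 0.40 and 0.80 FPKM in knockout libraries 1 to 3. The groups were apart but the difference did not pass the test without a block (log2 fold change −1.48, standard error 0.389, limma adjusted p = 0.105), and it passed with the replicate number as a block (0.0189) and in replicates 2 and 3 alone (0.00126), within a range that reached 0.305 over all alternatives. The paper reports that Western blots for SMYD2 protein in VSMCs bore out the deletion. The floxed part of the gene is exon 2, and the FPKM of the whole gene does not show that exon apart. Replicate 1 stood apart from replicates 2 and 3 in both genotypes, along a first principal component that held 50.2% of the variance. Calls of the 10 genes and of the tested pathway genes named below that changed when replicate 1 was left out are therefore given both ways. For the rest of the wider pathway list only counts are given, and for the marker genes neither was done.

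The smooth muscle label was set against marker genes. *Acta2*, the most abundant of 11 smooth muscle markers, reached 200.9 FPKM or more in each library, whereas *Myh11*, a defining marker of contractile cells, was at 0.22 FPKM or less in each. The smooth muscle markers summed to 924.7, 823.6 and 816.3 FPKM in the controls and to 263.6, 430.0 and 377.5 FPKM in the knockouts. Of the 6 tested, 1, *Acta2*, was called lower, as 1.21% of all tested genes were, and 2 had an unadjusted p under 0.05. Without *Acta2* the sums overlapped, at 163.2, 141.2 and 133.3 FPKM against 62.7, 162.1 and 115.4 FPKM. *Actg2* was also lower in every knockout library but was not called (limma adjusted p = 0.0722). The groups overlapped for *Tagln*, *Cnn1*, *Smtn* and *Lmod1*, and the knockout mean was the higher for *Lmod1*. Endothelial markers summed to 2.15, 2.76 and 2.71 FPKM in the controls and to 2.69, 5.84 and 3.21 FPKM in the knockouts, led by *Kdr*, with 0 of 1 tested called in limma (1 at an unadjusted p under 0.05) and *Cdh5*, *Tek* and *Tie1* at or under 0.1 FPKM in all 6 libraries. The higher knockout sums came from *Kdr* alone, since without it the sums were 1.68, 2.18 and 1.87 FPKM in the controls and 1.73, 0.69 and 0.25 FPKM in the knockouts. The 9 fibroblast markers, led by *Col1a1*, summed to 741.3, 1440 and 1339 FPKM in the controls and to 1429, 1420 and 1055 FPKM in the knockouts. Without *Col1a1* the sums were 379.1, 995.5 and 847.9 FPKM against 95.7, 588.6 and 533.5 FPKM, lower in each knockout than in the control of the same number. Of 9 tested, *Dpt* and *Serpinf1* were called lower, as 1.21% of all tested genes were, and 5 had an unadjusted p under 0.05 in either direction. The control means of *Dpt* and *Serpinf1* were 58.9 and 8.72 times their knockout means. *Ly6a* was called lower only with the replicate block (limma adjusted p = 0.0404, or 0.0832 with no filter as well), where 5.72% of all tested genes were called lower. *Pdgfra* and *Thy1* were also lower in every knockout library but were not called (limma adjusted p = 0.0601 and 0.115). Others were higher, *Col1a1* in every knockout library (432.5 against 895.3 FPKM in the mean, limma adjusted p = 0.186), and *Dcn* and *Lum* in each knockout than in the control of the same number, and these were not called either.

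Macrophage markers, led by *Cd14*, summed to 42.6, 30.01 and 26.75 FPKM in the controls and to 40.9, 18.4 and 22.97 FPKM in the knockouts, with 0 of 4 tested called in limma and *Ptprc*, *Adgre1* and *Itgam* at or under 0.1 FPKM. The 1 gene at an unadjusted p under 0.05, *Csf1r*, was higher in every knockout library, and without *Cd14* the sums overlapped, at 4.95, 8.12 and 9.01 FPKM against 5.62, 7.75 and 6.90 FPKM. Pericyte markers, led by *Rgs5*, summed to 5.96, 10.5 and 9.99 FPKM in the controls and to 7.05, 14.2 and 6.97 FPKM in the knockouts, with *Abcc9* at or under 0.1 FPKM. Without *Rgs5* the sums did not overlap and were higher in the knockouts, at 2.68, 2.48 and 2.72 FPKM against 6.34, 8.34 and 6.12 FPKM. Of 4 tested, 2 had an unadjusted p under 0.05. *Notch3* was called higher (limma adjusted p = 0.0489), as 1.23% of all tested genes were, but not with no filter (0.0627, or 0.066 with the block as well). Neural and Schwann cell markers, led by *S100b*, summed to 1.31, 2.38 and 1.81 FPKM in the controls and to 2.37, 13.3 and 8.49 FPKM in the knockouts, with 0 of 2 tested called in limma (1 at an unadjusted p under 0.05) and *Sox10* and *Ngfr* at or under 0.1 FPKM. The higher sums in knockout replicates 2 and 3 came from *S100b*, since without it the sums overlapped, at 0.97, 1.00 and 0.79 FPKM against 1.39, 0.60 and 1.09 FPKM. Fewer cells of a type and less RNA per cell cannot be told apart in such samples, and the part of these markers in the results for the receptor and cGMP genes was not tested.

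All 10 genes were present in the data, and 5 of them (*Edn1*, *Npr1*, *Npr2*, *Npr3* and *Pde5a*) reached the mean required for the test. *Npr2* and *Pde5a* were called, both higher in the knockouts, where 1.23% of all tested genes were called higher and 2.44% in either direction. With the replicate block *Npr3* was called as well, against 4.72% of genes called higher and 10.4% in either direction. Every knockout library lay above every control library for 4 of the 5 genes, the exception being *Npr1*, and for 13.1% of all tested genes. With no filter on low values, *Agtr1a* and *Pde5a* were called higher and *Npr2* was not (limma adjusted p = 0.0654), against 0.767% of all genes called higher and 1.36% in either direction. In replicates 2 and 3 alone, 4 of the 5 genes were called, where 29.0% of all tested genes were. At stricter cutoffs, a fold change over 2 and an adjusted p under 0.01, 0 of the 5 genes passed in limma, while 4 had an unadjusted p under 0.05.

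The number of calls changed when single libraries were left out. Without control replicate 1 there was 1 call in limma among the 5 genes, without knockout replicate 1 there were 2, and without control replicate 2, control replicate 3, knockout replicate 2 or knockout replicate 3 there were 0, although 4 genes had an unadjusted p under 0.05 each time. Over all genes 154 were called higher and 152 lower, or 247 and 99 after rescaling to TPM, which shifted the median of all genes by 0.11 on the log2 scale. The calls over all genes numbered 277 (2.20% of those tested) without control replicate 1, 34 (0.271%) without control replicate 2 and 36 (0.287%) without control replicate 3. They numbered 686 (5.46%) without knockout replicate 1, 55 (0.438%) without knockout replicate 2 and 39 (0.310%) without knockout replicate 3. None of the 10 genes turned direction with that rescaling or with quantile normalization.

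**Figure D1:**
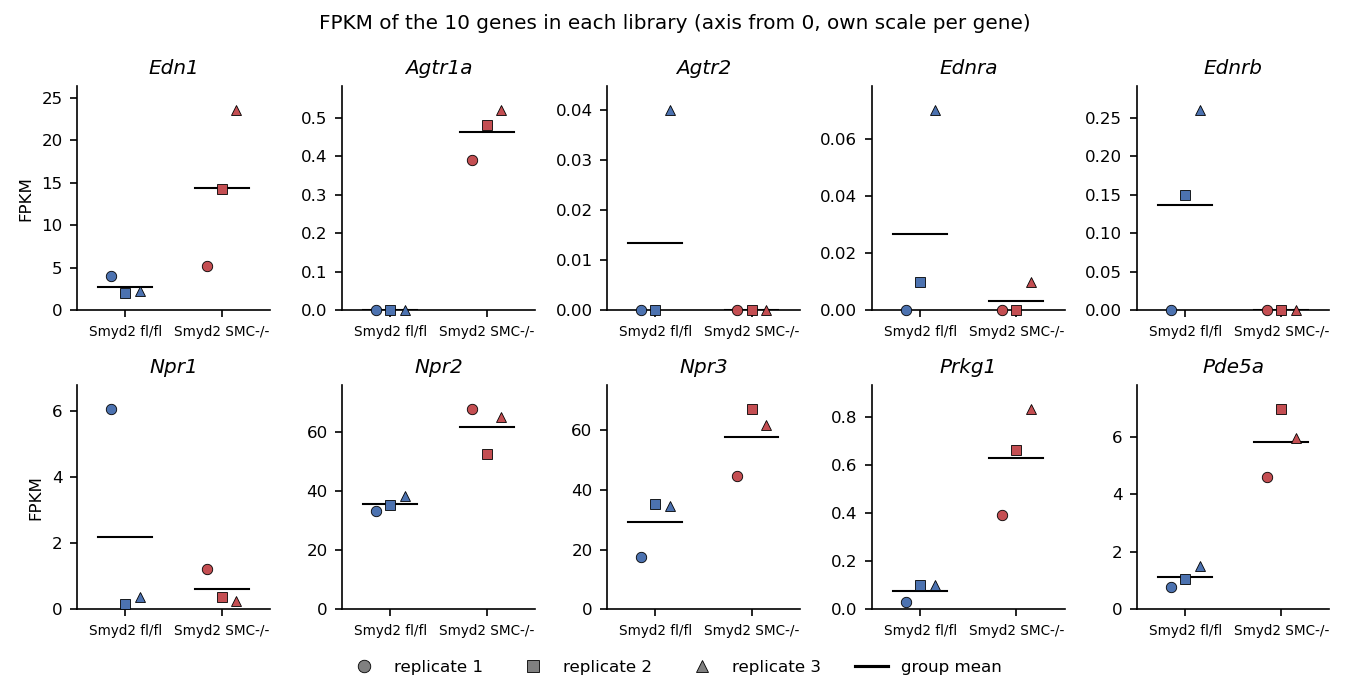
FPKM of the 10 genes in each library, with replicates as separate symbols, group means as black lines and a vertical scale of its own for each gene. Knockout libraries sit above all control libraries for *Edn1*, *Agtr1a*, *Npr2*, *Npr3*, *Prkg1* and *Pde5a*, and *Npr1* has 1 control library at 6.04 FPKM.

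*Edn1* was the only ligand gene among the 10 and encodes the precursor of endothelin-1, a potent constrictor usually made by endothelium. It is NCBI Gene 13614, on chromosome 13 of GRCm38 from 42301476 to 42307990. Its upstream window is shown as a description of the locus, and the part of the window in *Edn1* levels was not tested. The 250 bases before its RefSeq start, chr13:42301226-42301475 on the plus strand of GRCm38.p6, overlap no exon annotated in GENCODE, and capitals mark a CCAAT box on either strand, the single match among the motifs searched.

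Edn1: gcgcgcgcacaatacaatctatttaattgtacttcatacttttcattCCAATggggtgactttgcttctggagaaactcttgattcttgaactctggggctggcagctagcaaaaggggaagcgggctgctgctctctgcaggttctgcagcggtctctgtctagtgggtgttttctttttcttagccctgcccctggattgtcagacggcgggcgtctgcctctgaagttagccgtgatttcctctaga

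*Edn1* measured 4.06, 2.04 and 2.26 FPKM in control libraries 1 to 3, against 5.20, 14.23 and 23.59 FPKM in knockout libraries 1 to 3. The groups did not overlap, but knockout replicate 1 was close to the controls and the other two were far above them. The group means were 2.79 ± 1.11 and 14.3 ± 9.20 FPKM (SD, n = 3), a ratio of 5.15, and the log2 fold change of 1.84 did not pass the test (standard error 0.503, limma adjusted p = 0.115). Between libraries of the same number, the knockout exceeded the control by 0.29 in replicate 1, 2.33 in replicate 2 and 2.92 in replicate 3 on the log2(FPKM + 1) scale. Leaving out knockout replicate 1 gave a log2 fold change of 2.39 that passed (limma adjusted p = 0.0204), as did that of 2.62 in replicates 2 and 3 alone (limma adjusted p = 0.000428). No other alternative passed, and the adjusted p reached 0.298 among them. The endothelial marker *Kdr* had 0.47, 0.58 and 0.84 FPKM in the controls and 0.96, 5.15 and 2.96 FPKM in the knockouts, with its higher values likewise in knockout replicates 2 and 3. *Pecam1*, another endothelial marker, went the other way without overlap, at 0.56, 0.88 and 0.92 FPKM in the controls and 0.12, 0.18 and 0 FPKM in the knockouts. The part of these cells in the *Edn1* values was not tested.

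RNA of the endothelin-1 receptor genes was scarcely detected in these cells. *Ednra* (NCBI Gene 13617, chromosome 8 from 77663029 to 77724452), the type A receptor gene that mediates constriction, was listed at 0, 0.01 and 0.07 FPKM in the controls and at 0, 0 and 0.01 FPKM in the knockouts, or at most about 5 fragments in a library. *Ednrb* (NCBI Gene 13618, chromosome 14 from 103814615 to 103844508), the type B receptor gene, was listed at 0, 0.15 and 0.26 FPKM in control libraries 1 to 3, about 0, 11 and 18 fragments, and at 0 in every knockout library. Control replicate 1 was thus at the level of the knockouts, and *Ednrb* fragments were found in control replicates 2 and 3 alone. Neither gene passed the filter on the mean, and in the fit with no filter limma's adjusted p was 0.664 for *Ednra* and 0.349 for *Ednrb*.

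RNA levels of the angiotensin receptor genes were low as well, yet *Agtr1a* separated the groups. *Agtr1a* (NCBI Gene 11607, chromosome 13 from 30336356 to 30382867) encodes a type 1 receptor, the main constrictor receptor for angiotensin II. It was listed at 0 in all 3 control libraries and at 0.39, 0.48 and 0.52 FPKM in knockout libraries 1 to 3, or about 15, 20 and 22 fragments. The knockout libraries were close to each other, and no fragments of it were listed in the controls at this depth. Of 796 genes listed at 0 in every control, 69 were above 0 in every knockout, and 69 genes showed the converse. For 5 of the former, *Agtr1a* included, all knockout libraries were at 0.39 FPKM or above. The mean of *Agtr1a* was under the filter, and without the filter the difference in log2(FPKM + 1) was 0.55 (standard error 0.0489, limma adjusted p = 0.0145, or 0.0399 with the replicate block). That size depends on the pseudocount and is no bound on the fold, as it was 2.49 with a pseudocount of 0.1 (limma adjusted p = 0.0109). In limma the adjusted p was 0.101 without control replicate 2, 0.115 without control replicate 3, 0.0749 without knockout replicate 2 and 0.0615 without knockout replicate 3, and over all alternatives it ranged from 0.00619 to 0.115. A close paralog, *Agtr1b*, had no entry under that symbol and was not analysed here, so fragments of both could have been assigned to *Agtr1a*. *Agtr2* (NCBI Gene 11609, chromosome X from 21484624 to 21488833), the type 2 receptor gene, was listed at 0.04 FPKM in control replicate 3, about 3 fragments, and at 0 in the other 5 libraries.

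The natriuretic peptide receptor genes *Npr2* and *Npr3* were the most abundant of the 10 genes in both genotypes, while *Npr1* was low. *Npr2* (NCBI Gene 230103, chromosome 4 from 43629015 to 43651437) encodes the guanylyl cyclase that binds C-type natriuretic peptide. It measured 33.28, 35.20 and 38.29 FPKM in control libraries 1 to 3, against 67.63, 52.65 and 65.02 FPKM in knockout libraries 1 to 3. The controls lay within a narrow band, and the lowest knockout library was well above the highest control. The means were 35.6 ± 2.53 and 61.8 ± 8.0 FPKM (SD, n = 3), a ratio of 1.74, with a log2 fold change of 0.77 (standard error 0.141, limma adjusted p = 0.0479). *Npr2* exceeded 85.8% to 88.5% of all genes in the control libraries and 92.2% to 94.1% in the knockout libraries. Its adjusted p stood close to the threshold and crossed it with any library left out. Leaving out control replicates 1, 2 and 3 in turn gave a limma adjusted p of 0.0830, 0.18 and 0.169, and leaving out knockout replicates 1, 2 and 3 gave 0.0543, 0.0980 and 0.214. The log2 fold change was between 0.66 and 0.91 over all alternatives, with an adjusted p from 0.00799 to 0.214.

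*Npr3* (NCBI Gene 18162, chromosome 15 from 11839896 to 11907837), the clearance receptor gene, measured 17.63, 35.35 and 34.58 FPKM in control libraries 1 to 3, against 44.65, 66.90 and 61.58 FPKM in knockout libraries 1 to 3. Replicate 1 was the lowest library of each genotype, and the knockout exceeded the control of the same number by 1.29, 0.90 and 0.81 on the log2(FPKM + 1) scale in replicates 1, 2 and 3. The means were 29.2 ± 10.0 and 57.7 ± 11.6 FPKM (SD, n = 3), with a ratio of 1.98. The log2 fold change of 1.00 did not pass with no block (standard error 0.299, limma adjusted p = 0.135) and passed with the replicate block (standard error 0.128, limma adjusted p = 0.0225). With the block and no filter the adjusted p was 0.0563 in limma. A block for replicate 1 against the rest gave 0.00394 in limma. In replicates 2 and 3 alone the log2 fold change was 0.86 (limma adjusted p = 0.00101), and over all alternatives the adjusted p went from 0.00101 to 0.371.

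*Npr1* (NCBI Gene 18160, chromosome 3 from 90450591 to 90465928), the gene of the cyclase receptor for atrial natriuretic peptide, measured 6.04, 0.16 and 0.37 FPKM in control libraries 1 to 3, against 1.23, 0.37 and 0.26 FPKM in knockout libraries 1 to 3. Replicate 1 was the highest library of each genotype, and the groups overlapped. The log2 fold change of −0.51 did not pass (standard error 0.694, limma adjusted p = 0.744, within 0.341 to 0.914 over all alternatives). Its sign turned without control replicate 1, to 0.31, and in replicates 2 and 3 alone, to 0.06.

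**Figure D2:**
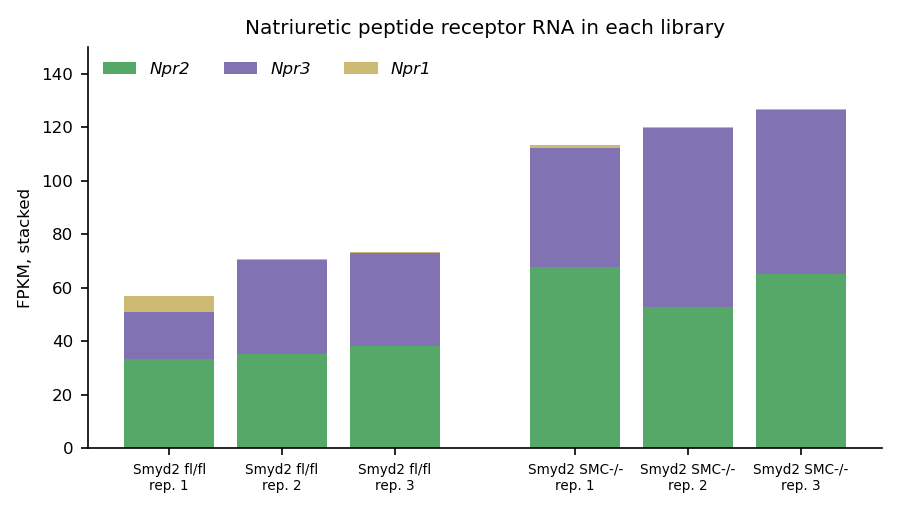
Stacked FPKM of *Npr2*, *Npr3* and *Npr1* in each of the 6 libraries, grouped by genotype. The summed level is 56.95 to 73.2 FPKM in the controls and 113.5 to 127 FPKM in the knockouts, while *Npr1* is visible mainly in control replicate 1.

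The summed FPKM of the natriuretic receptor genes was 56.95, 70.7 and 73.2 in the controls and 113.5, 119.9 and 127 in the knockouts. These sums did not overlap (p = 0.1 by a two-sided exact permutation test, which cannot give less with 3 against 3 libraries). The shares within the sum did overlap. *Npr2* made up 58.4%, 49.8% and 52.3% of it in the controls and 59.6%, 43.9% and 51.3% in the knockouts (p = 0.9 by the same exact test). *Npr3* made up 31.0%, 49.99% and 47.2% in the controls and 39.3%, 55.8% and 48.5% in the knockouts (p = 0.6 by the same exact test). In both genotypes replicate 1 had the highest *Npr2* share and the lowest *Npr3* share. Between libraries of the same number the *Npr3* share was higher in each knockout, by 8.38, 5.79 and 1.33 percentage points in replicates 1 to 3 (p = 0.25 by an exact test of the pairs, the smallest that 3 pairs allow). The *Npr2* share differed by 1.14, −5.88 and −1.03 percentage points (p = 0.75 by the same exact test of the pairs). The knockouts differed from the controls by −1.92 percentage points in the mean *Npr2* share, but by 0.549 without control replicate 1 and by 1.92 without knockout replicate 2. For *Npr3* the difference was 5.17 percentage points, but −0.716 without control replicate 1 and 1.22 without knockout replicate 2, and it was 8.80 and 9.44 without control replicate 2 and knockout replicate 1. For *Npr2* it was −3.78 without control replicate 2 and −5.92 without knockout replicate 1. In replicates 2 and 3 alone the differences were 3.56 percentage points for *Npr3* and −3.45 for *Npr2*, in the direction found over all 6 libraries.

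Downstream of the cyclases, *Prkg1* and *Pde5a* were both higher in every knockout library than in any control. *Prkg1* (NCBI Gene 19091, chromosome 19 from 30564487 to 31765268) encodes cGMP-dependent protein kinase I, through which cGMP relaxes smooth muscle. It measured 0.03, 0.10 and 0.10 FPKM in control libraries 1 to 3, against 0.39, 0.66 and 0.83 FPKM in knockout libraries 1 to 3, or about 3, 10 and 10 against 33, 63 and 79 fragments. Replicate 1 was the lowest library of each genotype. The mean was under the filter, and without the filter the difference in log2(FPKM + 1) of 0.59 did not pass the test (standard error 0.112, limma adjusted p = 0.0764). It passed without knockout replicate 1 (0.70, limma adjusted p = 0.0226), in replicates 2 and 3 alone (0.66, limma adjusted p = 0.0332) and with a block for replicate 1 against the rest (limma adjusted p = 0.0171), and the highest adjusted p among its alternatives was 0.246. The median log2 fold change over tested genes of chromosome 19 was −0.42, the opposite direction to that of *Prkg1*.

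*Pde5a* (NCBI Gene 242202, chromosome 3 from 122729158 to 122859374) encodes the cGMP-specific phosphodiesterase of smooth muscle that sildenafil inhibits. It measured 0.78, 1.04 and 1.52 FPKM in control libraries 1 to 3, against 4.59, 6.95 and 5.94 FPKM in knockout libraries 1 to 3. The lowest knockout library was far above the highest control, with about 557, 948 and 808 fragments against 101, 145 and 211. The means were 1.11 ± 0.375 and 5.83 ± 1.18 FPKM (SD, n = 3), a ratio of 5.23, and the log2 fold change was 1.69 (standard error 0.215, limma adjusted p = 0.0171). Between libraries of the same number the difference in log2(FPKM + 1) was 1.65, 1.96 and 1.46, so that it was of like size in each pair. The call was lost without control replicates 2 and 3, at a limma adjusted p of 0.0999 and 0.0699, and without knockout replicates 2 and 3, at 0.0867 and 0.107. The lowest adjusted p, 0.000373 in limma, was that of replicates 2 and 3 alone, and the log2 fold change was between 1.57 and 2.31 throughout.

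**Figure D3:**
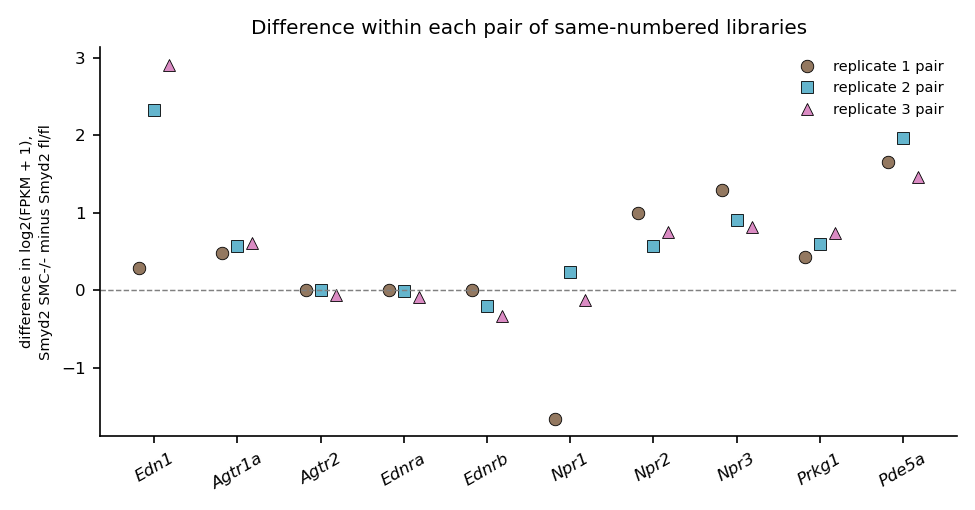
Difference in log2(FPKM + 1), knockout minus control, within each pair of same-numbered libraries for the 10 genes. *Pde5a*, *Npr2*, *Npr3*, *Prkg1*, *Agtr1a* and *Edn1* are above 0 in all 3 pairs, *Edn1* by 0.29 in replicate 1 and by 2.92 in replicate 3, and *Npr1* is at −1.66 in replicate 1.

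**Figure D4:**
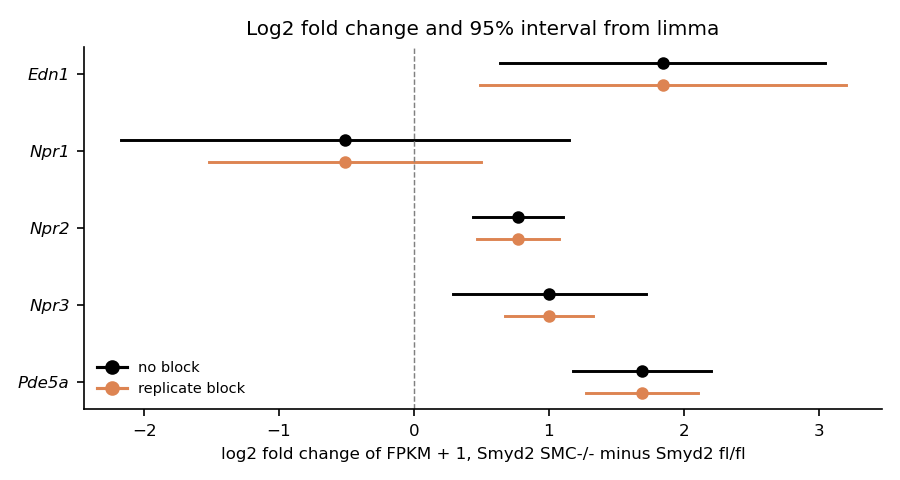
Log2 fold change of FPKM + 1 (points) and its 95% interval (lines) from limma for the 5 tested genes, with no block in black and with the replicate block in orange. Before adjustment for the number of genes, the intervals of *Edn1*, *Npr2*, *Npr3* and *Pde5a* lie above 0 and that of *Npr1* spans it, and the interval of *Npr3* runs from 0.29 to 1.72 with no block and from 0.68 to 1.33 with it.

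In order of level, *Npr2* and *Npr3* came first in both genotypes, with ranges that overlapped each other. In the controls *Edn1* followed and was above *Pde5a* in every library, while the range of *Npr1* took in both. In the knockouts *Edn1* and *Pde5a* followed, with overlapping ranges. *Agtr1a*, *Prkg1* and *Npr1* lay between 0.26 and 1.23 FPKM in the knockouts, and *Ednra*, *Ednrb* and *Agtr2* at or near 0 in both genotypes. Within 1 Mb of the 10 genes, 0 neighbouring genes were called in limma with no block, where 2.44% of all tested genes were called. Each gene had from 5 to 30 tested neighbours, and their median log2 fold change lay between −0.21 and 0.24. Regulation of blood pressure was the annotated process that took in the most members, 4 of the 10 genes, namely *Agtr1a*, *Ednra*, *Ednrb* and *Npr3*. Of its 39 genes in the data 22 were tested, of which 0 were called higher and 2 lower in limma, or 3 and 4 with the replicate block, where 2.44% and 10.4% of all tested genes were called in either direction.

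RefSeq upstream windows of 250 bases were at hand for 9 of the 10 genes, in 10 windows, and were searched on both strands for motifs chosen after the RNA values had been seen. The CArG box, bound by SRF in contractile genes, was in 0 of the 10 windows and in 1.47% of 32851 windows of all genes. The letters CCAAT were in 6 of the 10 windows and 33.8% of all windows, and GGGCGG (GC box) in 4 and 32.7%. The letters TGACG, the core of a cAMP response element, were in 2 windows and 17.8% of all windows, and TATAAA in 0 and 12.4%. A CArG box can itself hold CCAAT or TATAAA. G and C made up 52.4% of a window in the median of all genes, compared with 68.4% for *Pde5a*, 64.4% for *Npr2*, 50.4% for *Edn1* and 38.8% for *Npr3*. A match is a stretch of letters only, and binding was not measured in these cells.

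The genes whose levels were most like those of *Npr2*, *Npr3* and *Pde5a* over the 6 libraries are given as a description, since all of them share the libraries and their genotypes. For *Npr2* these were *Tmem87b*, *Gpnmb* and *Arhgap17*, with Pearson correlations of 0.995, 0.994 and 0.994, among 105 of 8763 genes above 0.95. For *Pde5a* they were *Atp8b2*, *Bmp2k* and *Fam198b* (0.997, 0.997 and 0.995), among 114 of 8764 genes. For *Npr3* they were *Ntn4*, *Phyhip* and *Aga* (0.998, 0.997 and 0.997), among 174 of 8763 genes. *Ntn4* shared with *Npr3* a low control replicate 1, at 0.81 FPKM against 6.70 and 6.95 FPKM in the other controls.

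A wider list of 84 genes of the same pathways had 77 in the data and 48 tested. Of these, 2 were higher and 1 was lower in the knockouts, or 3 and 8 with the replicate block, where 2.44% and 10.4% of all tested genes were called. Their median log2 fold change was −0.18 against −0.02 for all tested genes. After rescaling to TPM the calls were 3 and 1, and with quantile normalization 1 and 2, where 2.75% and 2.73% of all tested genes were called. Without control replicate 2, control replicate 3, knockout replicate 2 or knockout replicate 3, 0 of the 48 genes were called in limma, with 12, 11, 12 and 13 at an unadjusted p under 0.05. In replicates 2 and 3 alone 8 were higher and 19 lower, where 29.0% of all tested genes were called. By role, these included 3 higher and 2 lower of 5 other vasoactive peptide and receptor genes. They also included 2 and 2 of 10 cGMP effector and breakdown genes, and 2 and 1 of 4 nitric oxide genes.

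*Avpr1a*, the gene of the vasopressin V1a receptor, a constrictor receptor like that of angiotensin II, was at 0, 0.08 and 0 FPKM in the controls and at 3.04, 5.81 and 7.27 FPKM in the knockouts. Every knockout library was thus far above the controls (log2 fold change 2.57, standard error 0.283, limma adjusted p = 0.0114). *Npy1r*, the gene of a neuropeptide Y receptor, was the most abundant gene of its role and went the other way. It measured 139.6, 131.1 and 127.5 FPKM in the controls and 56.3, 39.9 and 34.2 FPKM in the knockouts, with no overlap (log2 fold change −1.62, standard error 0.194, limma adjusted p = 0.0149). *Pde3a*, which encodes a phosphodiesterase inhibited by cGMP, rose from 0.15, 0.16 and 0.24 FPKM to 1.00, 1.56 and 1.34 FPKM (log2 fold change 0.95, standard error 0.176, limma adjusted p = 0.0493, or 0.0523 with quantile normalization, within 0.00204 to 0.213 over all alternatives). *Avpr1a* and *Pde3a*, with control means of 0.0267 and 0.183 FPKM, passed the filter only through the knockouts, and with no filter their limma adjusted p was 0.0229 and 0.0412. With the replicate block and no filter it was 0.0413 for *Avpr1a* and 0.0563 for *Pde3a*, so that the *Pde3a* call was lost. Leaving out control replicates 2 and 3 and knockout replicates 2 and 3 in turn ended all of these calls. The limma adjusted p was then 0.0703, 0.0783, 0.0750 and 0.0549 for *Avpr1a*, 0.0837, 0.0867, 0.0838 and 0.0634 for *Npy1r*, and 0.188, 0.18, 0.177 and 0.213 for *Pde3a*, and for *Pde3a* it was 0.0794 without control replicate 1.

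Renin-angiotensin genes had 0 calls among 7 tested in limma (1 at an unadjusted p under 0.05) and 1 with the replicate block, where 10.4% of all tested genes were called. That gene was *Agt*, which encodes the angiotensin precursor and measured 2.17, 3.72 and 2.74 FPKM in the controls and 0.85, 0.55 and 1.02 FPKM in the knockouts (log2 fold change −1.09, standard error 0.214, limma adjusted p = 0.0580, or 0.0433 with the replicate block and 0.0451 with quantile normalization, 0.0844 with the block and no filter, and from 0.00307 in replicates 2 and 3 alone to 0.197 over all alternatives). Its groups did not overlap, in the direction opposite to *Agtr1a*. In replicates 2 and 3 alone 2 of the 7 tested genes of this role were called lower, where 29.0% of all tested genes were called in either direction. *Atp6ap2*, the (pro)renin receptor gene, had the highest level of the role, 48.8 ± 2.37 against 75.3 ± 26.4 FPKM (SD, n = 3; limma adjusted p = 0.247). Endothelin processing genes had 0 calls among 2 tested in limma (1 at an unadjusted p under 0.05). *Ece2*, named after its values were seen, was lower in every knockout library, at 8.45, 12.07 and 10.53 FPKM in the controls and 6.72, 7.96 and 5.57 FPKM in the knockouts (log2 fold change −0.55, limma adjusted p = 0.176). It passed in replicates 2 and 3 alone (limma adjusted p = 0.0197), and its adjusted p reached 0.474 among the alternatives. *Ece1*, which encodes an endothelin-converting enzyme, measured 23.01, 38.1 and 36.7 FPKM in the controls and 19.98, 64.7 and 59.6 FPKM in the knockouts, with its highest values, like those of *Edn1*, in knockout replicates 2 and 3 (limma adjusted p = 0.685, or 0.00217 in replicates 2 and 3 of both genotypes alone, the lowest of its alternatives, which reached 0.935).

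Natriuretic peptide genes themselves were near the floor. *Nppa* and *Nppb* were at 0.76 FPKM or less in every library, and *Nppc* had no entry under that symbol and was not analysed here. *Furin*, a protease gene and the only tested gene of this role, had 44.7 ± 18.5 FPKM in the controls and 30.6 ± 6.03 FPKM in the knockouts (SD, n = 3; limma adjusted p = 0.423). It was lower with a block for replicate 1 (limma adjusted p = 0.0407) and in replicates 2 and 3 alone (0.0488), and its adjusted p reached 0.691 among the alternatives. On the nitric oxide side, the synthase genes *Nos1*, *Nos2* and *Nos3* were at 0.24 FPKM or less. *Gucy1a2*, which encodes a subunit of the soluble guanylyl cyclase, measured 8.42, 4.89 and 7.12 FPKM in the controls and 4.85, 3.03 and 4.08 FPKM in the knockouts, which all lay lower (limma adjusted p = 0.203, or 0.0418 with the replicate block and 0.0474 in replicates 2 and 3 alone, within 0.0413 to 0.436 over all alternatives). It was the one gene of 4 tested in its role that passed with the block, where 10.4% of all tested genes did. It did not pass with the block and no filter (limma adjusted p = 0.0744). Another subunit gene, *Gucy1a1*, had 0, 0.53 and 0.38 FPKM in the controls and 0, 2.38 and 1.21 FPKM in the knockouts. It was not called (limma adjusted p = 0.52), but was called higher in replicates 2 and 3 alone, where 29.0% of all tested genes were called. *Gucy1b1*, a further subunit gene, was under the filter, at 0.02, 0.86 and 0.71 FPKM against 0.04, 0.47 and 0.34 FPKM. *Ddah1*, whose product degrades an inhibitor of the synthases, had 46.3 ± 4.63 and 48.5 ± 14.3 FPKM (SD, n = 3; limma adjusted p = 0.969). It passed in replicates 2 and 3 alone, with a log2 fold change of 0.37 (limma adjusted p = 0.0272, within 0.0272 to 0.993 over all alternatives). Its sign turned without control replicates 2 and 3, to −0.02 and −0.01, and without knockout replicates 2 and 3, to −0.09 and −0.13. *Vasp*, which encodes a substrate of the cGMP kinase, had 63.4 ± 5.55 and 53.7 ± 15.3 FPKM (SD, n = 3; limma adjusted p = 0.538). It was lower in replicates 2 and 3 alone, by 0.42 on the log2 scale (limma adjusted p = 0.0179, within 0.0179 to 0.864 over all alternatives). With no block *Pde3a* was the only called gene among the 10 tested effectors, where 2.44% of all tested genes were called, and it was not called with quantile normalization.

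Genes that couple these receptors to the cell interior had 0 calls among 19 tested in limma (6 at an unadjusted p under 0.05, all lower), and 5 lower with the replicate block, where 5.72% of all tested genes were lower. With the block and no filter limma called 0 of 20 (10 at an unadjusted p under 0.05), where 1.42% of all genes were called. Their median log2 fold change was −0.37, or −0.30 after rescaling to TPM. The 5 were *Gnaq* and *Gna13*, which encode G protein alpha subunits, *Plcb3*, which encodes a phospholipase C, and the receptor kinase genes *Grk2* and *Grk5*. *Gnaq*, whose product links angiotensin and endothelin receptors to calcium release, measured 37.98, 28.87 and 30.16 FPKM in the controls and 21.46, 19.84 and 21.84 FPKM in the knockouts, without overlap. Its log2 fold change was −0.59 (limma adjusted p = 0.0847, or 0.0413 with the replicate block, within 0.0114 to 0.564 over all alternatives). *Grk5* had a log2 fold change of −0.99, *Plcb3* of −0.70, *Grk2* of −0.51 and *Gna13* of −0.47, with adjusted p of 0.0793, 0.0896, 0.294 and 0.288 in limma, or 0.0439, 0.0261, 0.0356 and 0.0460 with the block. Over all alternatives these ran from 0.00260 to 0.269 for *Grk5*, 0.00559 to 0.394 for *Plcb3*, 0.00709 to 0.862 for *Grk2* and 0.0169 to 0.597 for *Gna13*. A single gene of the role was called without control replicate 1 and a single gene, *Plcb3*, without knockout replicate 1 (limma adjusted p = 0.04999). In replicates 2 and 3 alone 10 of the 19 tested genes of the role were called lower, where 29.0% of all tested genes were called in either direction. All 5 were among the 10, with limma adjusted p of 0.0114 for *Gnaq*, 0.00260 for *Grk5*, 0.00559 for *Plcb3*, 0.00709 for *Grk2* and 0.0173 for *Gna13*. All but *Gna13* lie on chromosome 19, and with chromosome medians removed the log2 fold changes were −0.17 for *Gnaq*, −0.57 for *Grk5*, −0.29 for *Plcb3* and −0.10 for *Grk2*. *Rhoa*, the most abundant gene of the role, had 168.8 ± 9.24 and 163.7 ± 23.2 FPKM (SD, n = 3; limma adjusted p = 0.887), and the sign of its log2 fold change turned with rescaling to TPM, with quantile normalization and without knockout replicate 1, to 0.07, 0.03 and 0.07.

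**Figure D5:**
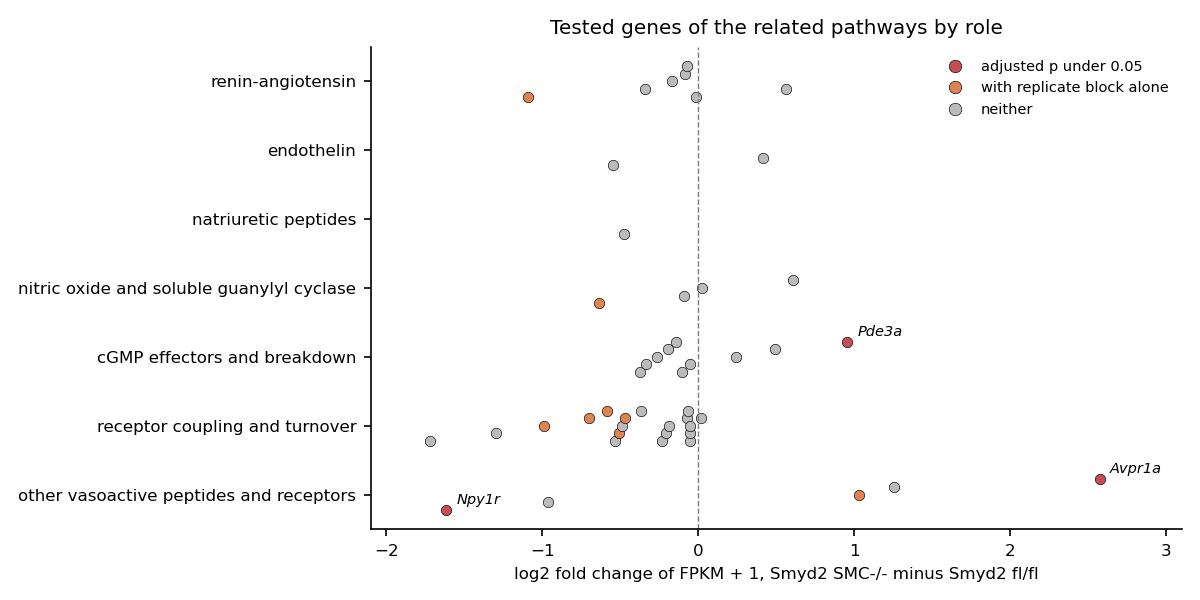
Log2 fold change of FPKM + 1, knockout minus control, for the 48 tested genes of the wider list by role, 1 point per gene. Red points had a limma adjusted p under 0.05 (*Avpr1a*, *Pde3a* and *Npy1r*), orange points passed with the replicate block alone, and the receptor coupling genes have a median of −0.37.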

How the data were processed

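Poly-A RNA of primary aortic VSMCs was sequenced as paired-end reads with the BGISEQ-500 system. The authors used SOAPnuke for filtering, HISAT and Bowtie2 for mapping and RSEM for quantification, with versions and genome build not given in the sources used here. The table they deposited holds FPKM with 2 decimals for 18112 genes in 6 libraries, and its columns were matched to samples by label. The labels name other RNA extraction and library kits than the methods.

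Values were taken to log2(FPKM + 1), and genes whose mean reached 0.5 FPKM (12565) were compared between genotypes with limma 3.58.1 in R 4.3.3 (lmFit; eBayes, trend and robust), with p-values adjusted by Benjamini-Hochberg over all tested genes. The code was tested on simulated data. Genes under the filter were read from a fit without it. A test planned for counts was not needed, as the table held FPKM. Shares and sums per library were compared with two-sided exact permutation tests in scipy 1.17.1, under Python 3.11.15 with pandas 2.3.3, numpy 2.4.6 and matplotlib 3.10.9.

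The replicate numbers, taken from the labels, were used to pair the libraries, though the methods name no pairing. Deviations from the group means correlated across genes by 0.615, 0.460 and 0.528 within replicates 1, 2 and 3. Replicates 2 and 3 of different genotypes correlated by 0.439 and 0.461. These values set replicate 1 apart but cannot tell whether replicates 2 and 3 were paired by number. Between replicates 2 and 3 of one genotype, 44.2% (controls) and 47.5% (knockouts) of genes differed beyond the 95% range of counting noise. Without a known repeat library of 1 RNA sample, this cannot show whether they came from separate animals or cultures. Depth was estimated from genes with 1 transcript of known length in GENCODE M21: 65.3% to 72.7% of low values lay within 0.15 of a whole fragment (30% by chance). It covers counting error only. Positions and upstream windows came from RefSeq for GRCm38.p6, matched by NCBI Gene number.

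The genes and lists were chosen with earlier results of these data known. From the wider list, genes were named if called without the block, if called with it at a mean of at least 1 FPKM (15 at most), or if the most abundant of their role. *Nppa*, *Nppb*, *Ece2*, *Gucy1a1*, *Gucy1b1*, the synthase genes and the marker genes were named after their values were seen. Genes most like a called gene were the 3 with the highest correlation at a mean of at least 5 FPKM. Alternatives were a pseudocount of 0.1, no filter, the replicate block, a block for replicate 1 against the rest, replicates 2 and 3 alone, TPM, quantile normalization, each library left out, and the stricter cutoffs of the methods. Chosen after seeing the data were no filter with a pseudocount of 0.1, no filter with the replicate block, other settings for genes under the filter, and removal of chromosome medians.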

Additional observations from a re-analysis of the deposited data

How the results depend on the processing

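With the replicate block 1312 of all genes and 11 of the wider pathway list were called, against 306 and 3 without it. With the block and no filter the calls were 257 and 2, against 247 and 3 with no filter alone. The block changed no call of the 10 genes or of the named pathway genes other than those given with it, *Pde3a* with no filter (limma adjusted p = 0.0563) among them. A block for replicate 1 against the rest gave 2550 and 16 calls, and replicates 2 and 3 alone gave 3650 and 27, with 4 of the 5 tested receptor and cGMP genes in place of 2. At a fold change over 2 and an adjusted p under 0.01, limma called 53 genes in all, 0 of the pathway list and 0 of the 5 genes, of which 14 and 4 had an unadjusted p under 0.05. When libraries were left out singly, the calls ranged from 34 to 686 over all genes, from 0 to 4 in the pathway list (11 to 24 at an unadjusted p under 0.05) and from 0 to 2 among the 5 genes (4 at an unadjusted p under 0.05 in each fit). Over all genes the count was 277 without control replicate 1, 34 without control replicate 2, 36 without control replicate 3, 39 without knockout replicate 3, 55 without knockout replicate 2 and 686 without knockout replicate 1. A fit without a library has fewer samples, and the cause of the other changes was not tested.

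The direction turned for 3 genes, none of them called with no block in all 6 libraries. *Npr1* had a log2 fold change of 0.0597 in replicates 2 and 3 alone, and from −0.99 to 0.31 with single libraries left out, above 0 without control replicate 1. *Ddah1* had −0.0346 with chromosome medians removed, a setting chosen after seeing the data, and from −0.13 to 0.29 with single libraries left out, below 0 without control replicates 2 and 3 and knockout replicates 2 and 3. It passed in replicates 2 and 3 alone, at 0.37. *Rhoa* had 0.0722 in replicates 2 and 3 alone, 0.0708 after rescaling to TPM, 0.0256 with quantile normalization, and from −0.12 to 0.0695 with single libraries left out, above 0 without knockout replicate 1. The cause was not tested. Of the fold changes and counts recomputed, 364 kept direction and side of the threshold or, for counts, moved little, 41 passed it where they had not, 33 no longer passed it, 24 counts moved and 11 turned direction. The 16 recomputed share differences moved by less than the spread between replicates, and 3 of them turned sign. The *Ednrb* share of endothelin receptors could not be computed, as both genes were at 0 in several libraries. Depth limits what can be said of *Agtr1a*, *Agtr2*, *Ednra*, *Ednrb* and *Prkg1*, which rest on 79 fragments or fewer in a library.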
